A study of Mus musculus with 16 samples.

Results

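The genes of glycolysis and the pentose phosphate pathway were followed through 4 culture media in activated mouse CD8+ T cells. The set holds 36 genes, listed by name for their known roles: glucose import, each step from glucose to pyruvate, the fate of pyruvate and lactate, the pentose phosphate pathway and 4 branch enzymes. All 36 were among the 17159 genes of the deposited depth-normalized table and passed the filter (a mean of at least 10 reads over all libraries) that left 12469 genes to test. The cells were of C57BL/6 background and, in every group alike, had been activated with antibodies to CD3 and CD28 for 2 days and then kept for 36 h in 1 of the media. The media were fresh medium lacking methionine (methionine-free), fresh medium containing it (complete), supernatant taken from mouse melanoma cells of the B16F10 line, and that supernatant with methionine added back (supplemented supernatant). Each medium had 4 libraries. The labels do not say whether those came from separate animals or cultures, so all p-values measure the spread between libraries, which may be technical.

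Glycolysis turns glucose into pyruvate through hexokinase, phosphofructokinase, aldolase and a chain of lower enzymes, and lactate dehydrogenase then turns pyruvate into lactate, which monocarboxylate transporters carry out of the cell. The pentose phosphate pathway branches off after hexokinase and yields NADPH and ribose phosphate for building nucleotides. T cells that have been activated are known for taking up much glucose and releasing lactate while they grow and divide.

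Recovered reads per library ran from 25.8 to 42.3 M. Same-medium libraries differed by more than sampling noise, with a mean chi-square per gene of 2.58 to 9.01 over 24 pairs. Both ranges include methionine-free library 1, for which whole reads could not be checked. The 5 CD8 T cell genes checked (Cd8a, Cd8b1, Cd3d, Cd3e, Cd3g) summed to between 67237 and 93978 reads in every library. They did not move together. Cd8a had a mean of 30626 in methionine-free against 24492 in complete medium, and Cd8b1 18811 against 19616. The Cd3 genes were lower in methionine-free medium, at 4931 against 15789 for Cd3g, 7626 against 12996 for Cd3d and 5850 against 10427 for Cd3e. Cd4 reached at most 200.2 reads. B cell genes summed to 362 to 966 reads, nearly all from Cd79b (352 to 916), and were lower with methionine. NK cell genes summed to 26.7 to 295 reads, highest in supplemented supernatant through Klrb1c (mean 253), while Ncr1 was highest in supernatant (mean 14.2). The 5 myeloid genes in the table summed to 57.3 to 186 reads. They were highest in complete medium through Itgax (mean 159, against 26.0 in methionine-free medium). Lyz2 and Cd14 went the other way, at means of 6.77 and 5.03 in complete against 14.9 and 17.9 in methionine-free medium. Csf1r and Emr1 never exceeded 5.77. Of 6 melanoma genes, which summed to 91 to 282 reads, Dct, Tyrp1 and Mlana never exceeded 7.14. The sums of the 6 were higher without added methionine (at least 231) than with it (at most 144). Most of that came from Pmel (means of 176 in methionine-free and 29.1 in complete medium), whereas Tyr was lowest in methionine-free medium. The part of these other cell types in the results was not tested. In RNA from whole cultures, fewer cells of a type and less RNA per cell cannot be told apart.

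The sequences before the starts of 5 members are shown for the contrast in their values described below. Pgk1, Slc16a3 and Aldoc had the lowest values without methionine relative to complete medium, and Ldha and Ldhb, which encode alternative subunits of the same enzyme, moved in opposite directions. The 250 bases before a RefSeq gene start are given 5′ to 3′ on the gene's own strand, from RefSeq on build GRCm38.p6. Ldha and Aldoc have 2 starts each among the windows used, and both are shown. The RefSeq genes Ldha and Slc16a3 begin further upstream, at chr7:46842274 and chr11:120948484, so their windows lie before starts inside the gene. The second Aldoc start also lies inside its gene. Bases just before the beginnings of Ldha and Slc16a3 were not searched. The windows lie at chrX:106186850-106187099 for Pgk1, chr7:46845554-46845803 and chr7:46846832-46847081 for Ldha, chr11:120948817-120949066 for Slc16a3 and chr11:78322823-78323072 and chr11:78323948-78324197 for Aldoc, all on the + strand, and at chr6:142507958-142508207 on the - strand for Ldhb. The bases after the first Ldha start were not found in a GENCODE transcript of the gene, whereas those after the other starts shown were. Capitals mark every ACGTG or GCGTG read on either strand, the core letters of the element known to bind hypoxia-inducible factors.
Pgk1: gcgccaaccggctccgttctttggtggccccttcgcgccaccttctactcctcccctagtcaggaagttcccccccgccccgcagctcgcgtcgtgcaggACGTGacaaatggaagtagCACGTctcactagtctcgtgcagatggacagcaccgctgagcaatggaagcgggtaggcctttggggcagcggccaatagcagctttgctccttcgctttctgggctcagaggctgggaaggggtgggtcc
Ldha first start: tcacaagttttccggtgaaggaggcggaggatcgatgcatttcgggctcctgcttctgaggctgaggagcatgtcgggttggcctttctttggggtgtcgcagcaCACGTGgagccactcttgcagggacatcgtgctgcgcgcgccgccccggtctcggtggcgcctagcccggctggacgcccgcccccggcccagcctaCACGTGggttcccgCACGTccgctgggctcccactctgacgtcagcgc
Ldha second start: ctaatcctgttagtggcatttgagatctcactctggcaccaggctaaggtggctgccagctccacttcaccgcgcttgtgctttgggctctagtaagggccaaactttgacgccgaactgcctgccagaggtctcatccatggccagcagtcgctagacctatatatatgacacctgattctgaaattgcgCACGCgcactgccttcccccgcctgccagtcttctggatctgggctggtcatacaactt
Slc16a3: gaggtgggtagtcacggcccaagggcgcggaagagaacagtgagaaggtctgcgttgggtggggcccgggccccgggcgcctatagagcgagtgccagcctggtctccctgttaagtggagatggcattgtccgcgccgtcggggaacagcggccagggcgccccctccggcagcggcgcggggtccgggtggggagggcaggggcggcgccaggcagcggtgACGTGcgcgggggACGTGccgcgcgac
Aldoc first start: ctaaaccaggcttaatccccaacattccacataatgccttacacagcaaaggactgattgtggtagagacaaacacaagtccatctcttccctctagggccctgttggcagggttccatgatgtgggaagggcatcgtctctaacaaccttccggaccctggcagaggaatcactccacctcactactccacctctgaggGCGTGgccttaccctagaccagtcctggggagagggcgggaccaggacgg
Aldoc second start: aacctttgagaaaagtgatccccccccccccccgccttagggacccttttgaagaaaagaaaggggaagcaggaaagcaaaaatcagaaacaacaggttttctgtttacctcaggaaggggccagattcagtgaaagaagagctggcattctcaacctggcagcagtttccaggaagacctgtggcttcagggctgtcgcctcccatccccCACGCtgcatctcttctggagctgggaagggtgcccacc
Ldhb: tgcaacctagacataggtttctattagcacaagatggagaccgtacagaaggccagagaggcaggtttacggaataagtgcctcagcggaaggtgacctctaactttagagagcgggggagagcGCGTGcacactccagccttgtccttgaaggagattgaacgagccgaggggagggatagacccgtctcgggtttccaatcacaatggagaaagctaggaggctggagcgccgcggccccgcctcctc
The first Ldha window holds 5 matches, because each of its CACGTG palindromes counts once per strand, while the second holds 1. Pgk1 and Slc16a3 hold 2 each, both Aldoc windows 1 each and Ldhb 1. Over the 48 such windows of 250 bases from the 33 members matched, of which 5 were at starts not found in a GENCODE transcript of the gene, ACGTG occurred in 15 windows (31.3%, from 12 genes), against 16.6% of all 32851 windows in the table and 21.7% of the 11349 windows of tested genes. GCGTG occurred in 26 member windows (54.2%, from 22 genes), against 28.2% and 44.2%. CACGTG, which contains ACGTG on both strands, occurred in 4 (8.33%), against 6.02% and 8.20%. Some windows of a gene overlap, as in Eno1, Aldoa and Pfkm, so a site can count more than once. The windows of tested genes came from 8903 of the 12469 genes. The median GC content of the member windows was 59.4%, near the 59.6% of tested genes and above the 52.4% of all windows. These are matches of letters, not measured sites.

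Without added methionine the pathway genes took a smaller share of the reads than with it. This share is not scaled for transcript length. The 36 genes together held 0.641% ± 0.0126 of the reads of the table in methionine-free medium and 3.04% ± 0.0666 in complete medium (SD, n = 4 each). They held 0.771% ± 0.0116 in supernatant and 2.13% ± 0.121 once methionine was added (SD, n = 4 each). No library without added methionine rose above 0.786%.

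**Figure D1:**
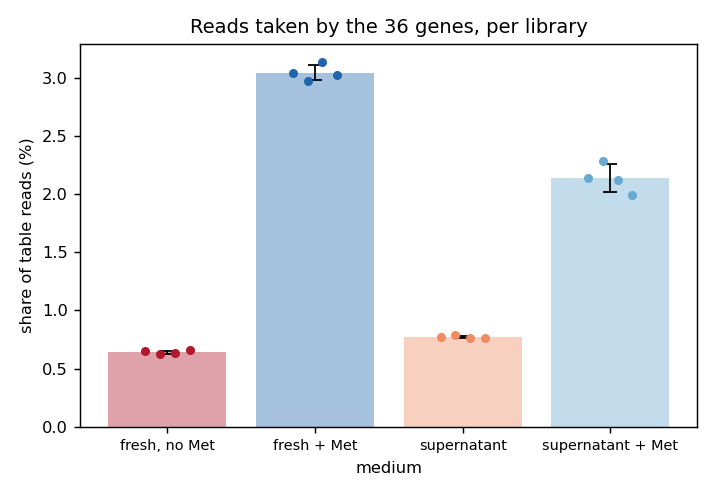
Share of all reads of the depth-normalized table (y axis, percent) that fell on the 36 glycolysis and pentose phosphate genes, by medium (x axis). Bars are means of 4 libraries, error bars are SD and points are single libraries; the means run from 0.641% in methionine-free medium to 3.04% in complete medium.

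The question of the first comparison was what methionine removal alone does in fresh medium. Of the 36 genes, 31 fell, 4 rose and 1 did not pass the test, where 42.3% of all tested genes fell and 43.3% rose (85.6% called in all). A called fall of at least 2-fold was found in 25 of them, against 13.5% of all tested genes. Their median log2 fold change was -1.86, against 0.01 over all genes tested. Supernatant against complete medium gave 31 lower, 5 higher and a median of -1.66 (42.5% and 43% of all tested genes, 85.5% called in all). The added higher gene was Eno3, which did not pass the test on removal. These comparisons share the libraries of complete medium. From FPKM values 29 members were called lower and 3 higher on removal, against 31.9% and 26.2% of all genes tested there, and 29 lower and 1 higher in supernatant, against 32.3% and 25.2%.

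Adding methionine to supernatant raised 29 of the 36 genes and lowered 4, where 41.8% of all tested genes rose and 41.8% fell (83.7% called in all). A called rise of at least 2-fold was found in 18, against 11% of all tested genes, and the median log2 fold change was 1.03. From FPKM values 27 were called higher and 2 lower, against 29.3% and 22.3% of all genes tested there. Taken library by library, 22 of the 36 genes kept a strict order without overlap, from methionine-free medium through supernatant and supplemented supernatant up to complete medium. That order held for 2.2% of all tested genes, and its reverse for 1.36% of them and for 0 members. The order was not set before the values were seen, so these shares are a description and not a test. The libraries of a medium were close to each other. The median coefficient of variation over the 36 genes was 3.38% in methionine-free medium, 3.46% in complete medium, 3.04% in supernatant and 5.37% in supplemented supernatant. Over all tested genes the medians in those media were 4.17%, 5.15%, 4.64% and 4.98%. Among the members Eno1 reached 47.0% in complete medium.

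**Figure D2:**
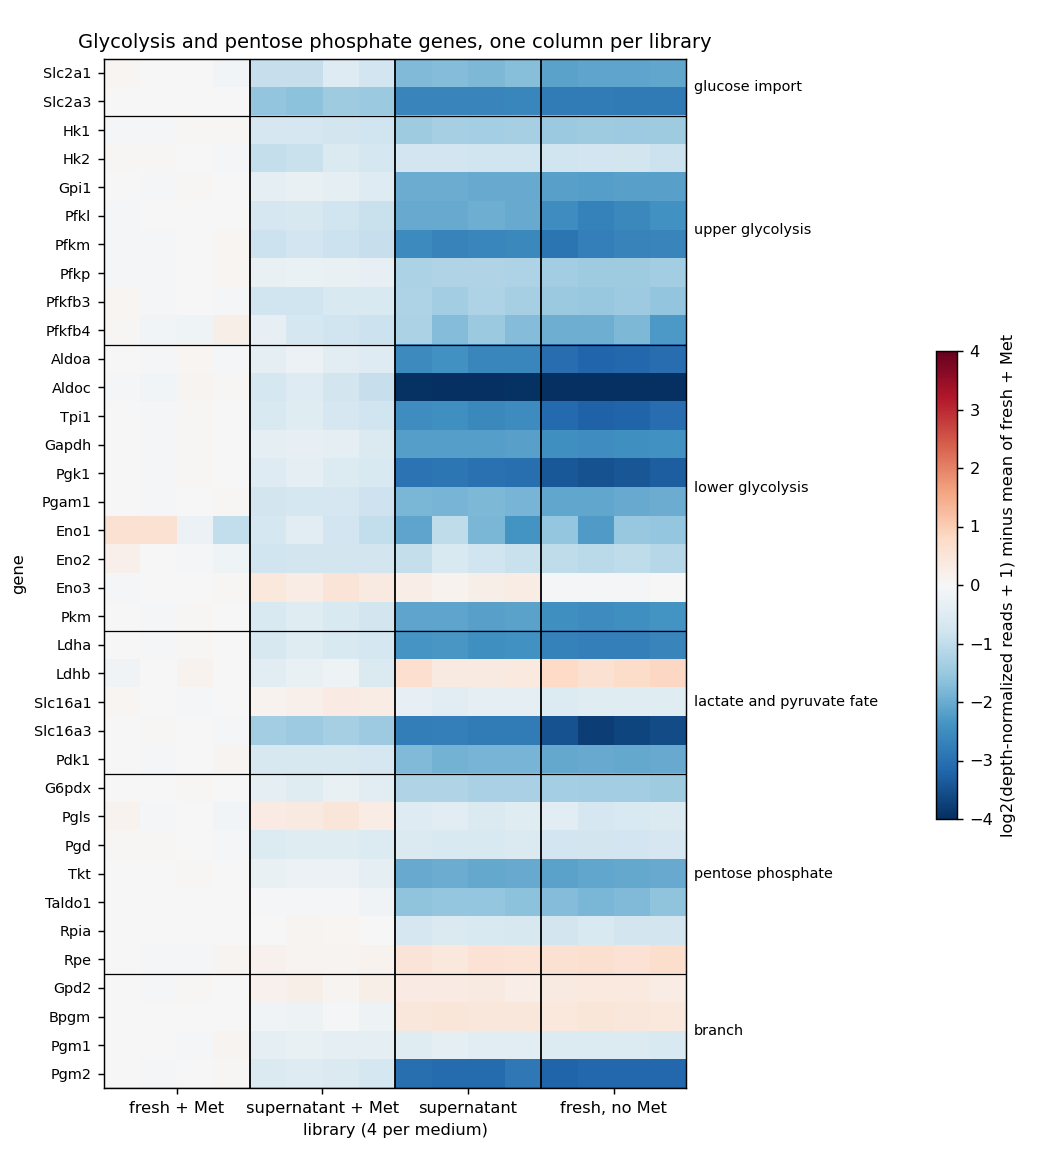
Each of the 36 genes (rows, grouped by role) in each of the 16 libraries (columns, grouped by medium), as log2(depth-normalized reads + 1) minus the gene's mean in complete fresh medium. Blue is lower and red is higher, with the colour scale ending at 4 log2 units either way; most rows darken from left to right, and Ldhb, Rpe, Gpd2 and Bpgm turn red in the media without added methionine.

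Both glucose importers followed methionine. Slc2a1 (GLUT1, a glucose transporter found in most cells) held 2568, 2652, 2646 and 2693 depth-normalized reads in the 4 methionine-free libraries and 11969, 11635, 11527 and 10520.1 in complete medium. It held 3341, 3414, 3308 and 3490.3 in supernatant and 5953, 6056, 7952 and 6682 once methionine was added. No medium overlapped another. The fall without methionine in fresh medium was 4.32-fold (log2 fold change -2.11, SE 0.053, adjusted p = 3.17e-27), and the rise in supernatant was 1.95-fold (adjusted p = 1.26e-17). Slc2a3 (GLUT3, a transporter of high affinity) held 4199.9, 4205, 4094 and 4097 in methionine-free and 29831, 28972, 29190.3 and 29122 in complete medium. Its supernatant libraries gave 4734, 4686, 4700.4 and 4753, and those with added methionine 9764, 9452, 11032 and 10576. The latter stayed far under every complete-medium library. Slc2a3 fell 7.06-fold in fresh medium (log2 fold change -2.82, SE 0.034, adjusted p = 8.13e-36), rose 2.16-fold in supernatant (adjusted p = 1.05e-24), and was still 2.87-fold lower in supplemented supernatant than in complete medium (adjusted p = 1.52e-27).

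The enzymes from glucose to fructose bisphosphate all fell without methionine in fresh medium (8 of 8), and 7 of 8 rose when it was added to supernatant. The exception was Hk2, the inducible hexokinase, the enzyme that traps glucose in the cell. Hk2 held 5447, 5589, 5689.7 and 5155 reads in methionine-free and 9819, 9644, 9401 and 8895 in complete medium. In supernatant it held 5535, 5547, 5413 and 5453, and with methionine 4889, 5086, 6343 and 5816, so the supernatant libraries lay within the range of the supplemented ones. Its difference on addition was 0.00 on the log2 scale (95% interval -0.10 to 0.11, adjusted p = 0.937), while removal from fresh medium lowered it 1.73-fold (adjusted p = 3.7e-16). Scaled by total reads instead, the addition gave -0.13 with an adjusted p of 0.0183.

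Hk1, the hexokinase present in most tissues, went with methionine in both media. It held 5563, 5729, 5701 and 5778 reads in methionine-free medium, 14934, 15129, 16017 and 15992 in complete medium, 5848, 6207, 6027 and 6189 in supernatant and 9733, 9707, 9263 and 8848 in supplemented supernatant. No medium overlapped another. The fall was 2.72-fold (log2 fold change -1.45, adjusted p = 1.11e-28) and the rise 1.55-fold (adjusted p = 1.81e-18). Gpi1, which turns glucose 6-phosphate into fructose 6-phosphate, fell 4.51-fold from 77624 ± 1893 to 17197 ± 176 reads (SD, n = 4) and rose 3.03-fold in supernatant.

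Phosphofructokinase commits sugar to glycolysis and is built from 3 kinds of subunit. Pfkl, the liver type, held 2258, 1965, 2128 and 2355 reads in methionine-free and 12344, 12847, 12805 and 12712 in complete medium, then 3112, 3144, 3241 and 3168 in supernatant and 7974, 8158, 7282 and 6891 with methionine added. Pfkm, the muscle type, held 365, 412, 434 and 439 and 2698, 2632, 2822 and 2927 in the fresh media, then 468, 429, 449 and 465 and 1526, 1630.4, 1530.5 and 1473 in the supernatants. Pfkp, the platelet type, held 13522, 13116, 13217 and 13583 and 34259.8, 34302, 35519 and 37721, then 14670.0, 15361, 15387 and 15013 and 28797, 29409, 28718 and 28014. Pfkm moved most on removal, at 6.71-fold lower, against 5.83-fold for Pfkl and 2.65-fold for Pfkp. On addition to supernatant Pfkm rose 3.4-fold, Pfkl 2.39-fold and Pfkp 1.9-fold (largest adjusted p of the 6 values 6.32e-23).

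Pfkfb3 and Pfkfb4 encode enzymes that set the level of fructose 2,6-bisphosphate, an activator of phosphofructokinase. Pfkfb3 held 2001, 1965, 2025 and 1875 reads in methionine-free and 5918, 5415, 5549.7 and 5404 in complete medium. It held 2344, 2145, 2345 and 2205 in supernatant and 3208, 3208, 3675 and 3672 in supplemented supernatant, a 1.52-fold rise (adjusted p = 2.01e-14) after a 2.83-fold fall in fresh medium. Pfkfb4 was more variable between libraries, at 101, 101, 111 and 78.5 and 405, 361, 351 and 456 in the fresh media, then 162, 117, 139 and 116 and 314, 242, 223 and 217 in the supernatants. Even so no media overlapped, and Pfkfb4 fell 4.0-fold (log2 fold change -2.0, SE 0.12, adjusted p = 2.57e-16) and rose 1.85-fold (adjusted p = 7.48e-08).

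From aldolase to pyruvate kinase, 9 of 10 genes fell without methionine in fresh medium, each at least 2-fold. On addition to supernatant 9 of 10 rose, 8 of them at least 2-fold. Aldoc, the aldolase best known from brain, changed most of the whole set. It held 148, 109, 161 and 166 reads in methionine-free and 5577, 5374, 6262 and 5959 in complete medium, then 374, 331, 341 and 376 in supernatant and 3584, 4083, 3470.0 and 3037 once methionine was added. The removal lowered it 39.9-fold (log2 fold change -5.32, SE 0.087, adjusted p = 2.62e-32) and the addition raised it 9.9-fold (adjusted p = 2e-26). Aldoa, the aldolase of muscle and most growing cells, held 18409, 16777, 17233 and 18105 and 152102, 146203, 159910.0 and 145696 reads in the fresh media, then 25797, 27921, 24908 and 24916 and 115357, 127471, 113125 and 104820.2 in the supernatants. It fell 8.56-fold and rose 4.44-fold.

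Gapdh, which makes NADH and is often used as a reference gene, was no constant here. It held 17811, 17671, 17829 and 18363 reads in methionine-free medium and 98899, 94074, 101602 and 97178 in complete medium. The supernatant libraries held 21357, 21469, 21182 and 21496, and the supplemented ones 75977, 77697, 75693 and 66223. Gapdh thus fell 5.46-fold (log2 fold change -2.45, SE 0.035, adjusted p = 7.09e-34) and rose 3.45-fold (adjusted p = 8.52e-30), with no overlap between media. Pgk1, whose enzyme makes the first ATP of the lower pathway, held 13563, 12548, 13293 and 14272 and 141560.2, 134912, 146284 and 143721 in the fresh media, then 18461, 18970.2, 17928 and 17536 and 98308, 108681, 97845 and 93654 in the supernatants. The fall was 10.6-fold (adjusted p = 2.03e-36) and the rise 5.46-fold (adjusted p = 2.36e-32). Tpi1, which interconverts the products of aldolase, fell 8.87-fold from 64164 ± 2235 to 7235 ± 368 reads (SD, n = 4), and Pgam1, the phosphoglycerate mutase, fell 4.11-fold from 44764 ± 1359 to 10894 ± 369 (SD, n = 4). Addition to supernatant raised Tpi1 3.67-fold and Pgam1 2.13-fold.

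Enolase, the enzyme before pyruvate kinase, has 3 genes that behaved differently. Eno3, the muscle enolase, held 1193, 1225, 1197 and 1262 reads in methionine-free and 1209, 1259, 1268 and 1305 in complete medium, which overlapped (log2 fold change -0.05, 95% interval -0.14 to 0.04, adjusted p = 0.325). Scaled by total reads, that difference turned to 0.11 with an adjusted p of 0.0203. In supernatant Eno3 held 1514, 1400.3, 1468 and 1565, and 1679.7, 1556, 1801 and 1633 with methionine. That rise was called at only 1.12-fold (adjusted p = 0.00127, limma), and the libraries with and without added methionine overlapped. Supernatant was 1.18-fold above complete medium (adjusted p = 1.41e-05) and supplemented supernatant 1.32-fold above it (adjusted p = 2.31e-09). Eno2, the neuronal enolase, stood at 67.6 ± 2.51 reads in methionine-free and 143 ± 15.4 in complete medium (SD, n = 4). It fell 2.08-fold on removal (adjusted p = 1.75e-09), but addition to supernatant left it at 84 ± 2.17 against 80.9 ± 8.75 (SD, n = 4, adjusted p = 0.652).

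Eno1, the enolase of most cells, could only be read with reserve. Its values were 284, 173, 290.3 and 283 in methionine-free and 1284, 1281, 703 and 417 in complete medium, then 191, 412, 232 and 159.5 in supernatant and 511, 626, 495 and 423 in supplemented supernatant. Libraries of 1 medium thus differed up to several-fold. It fell 3.3-fold on removal (adjusted p = 6.58e-08) and rose 2.18-fold on addition (adjusted p = 7.11e-05). Its depth-normalized value was only 2.85 reads per FPKM unit, against 18.9 to 203 in the other 35 members, and a near-identical copy, Gm5506, lists values of its own, so reads may have been split or dropped between them. Without Eno1, 30 of 35 genes fell and 4 rose on removal.

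Pkm, the pyruvate kinase gene, followed methionine in both media. It held 30570.5, 29060.5, 30672 and 31685 reads in methionine-free medium and 167765, 162841, 171420.4 and 166474 in complete medium. In supernatant it held 38681, 38872, 37322 and 37658, and 108843, 119986, 110007 and 99387 once methionine was added. It fell 5.48-fold (log2 fold change -2.45, SE 0.038, adjusted p = 4.32e-33) and rose 2.87-fold (adjusted p = 3.72e-27). Its splice forms are not separated in these tables, which list the gene under its older symbol Pkm2.

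**Figure D3:**
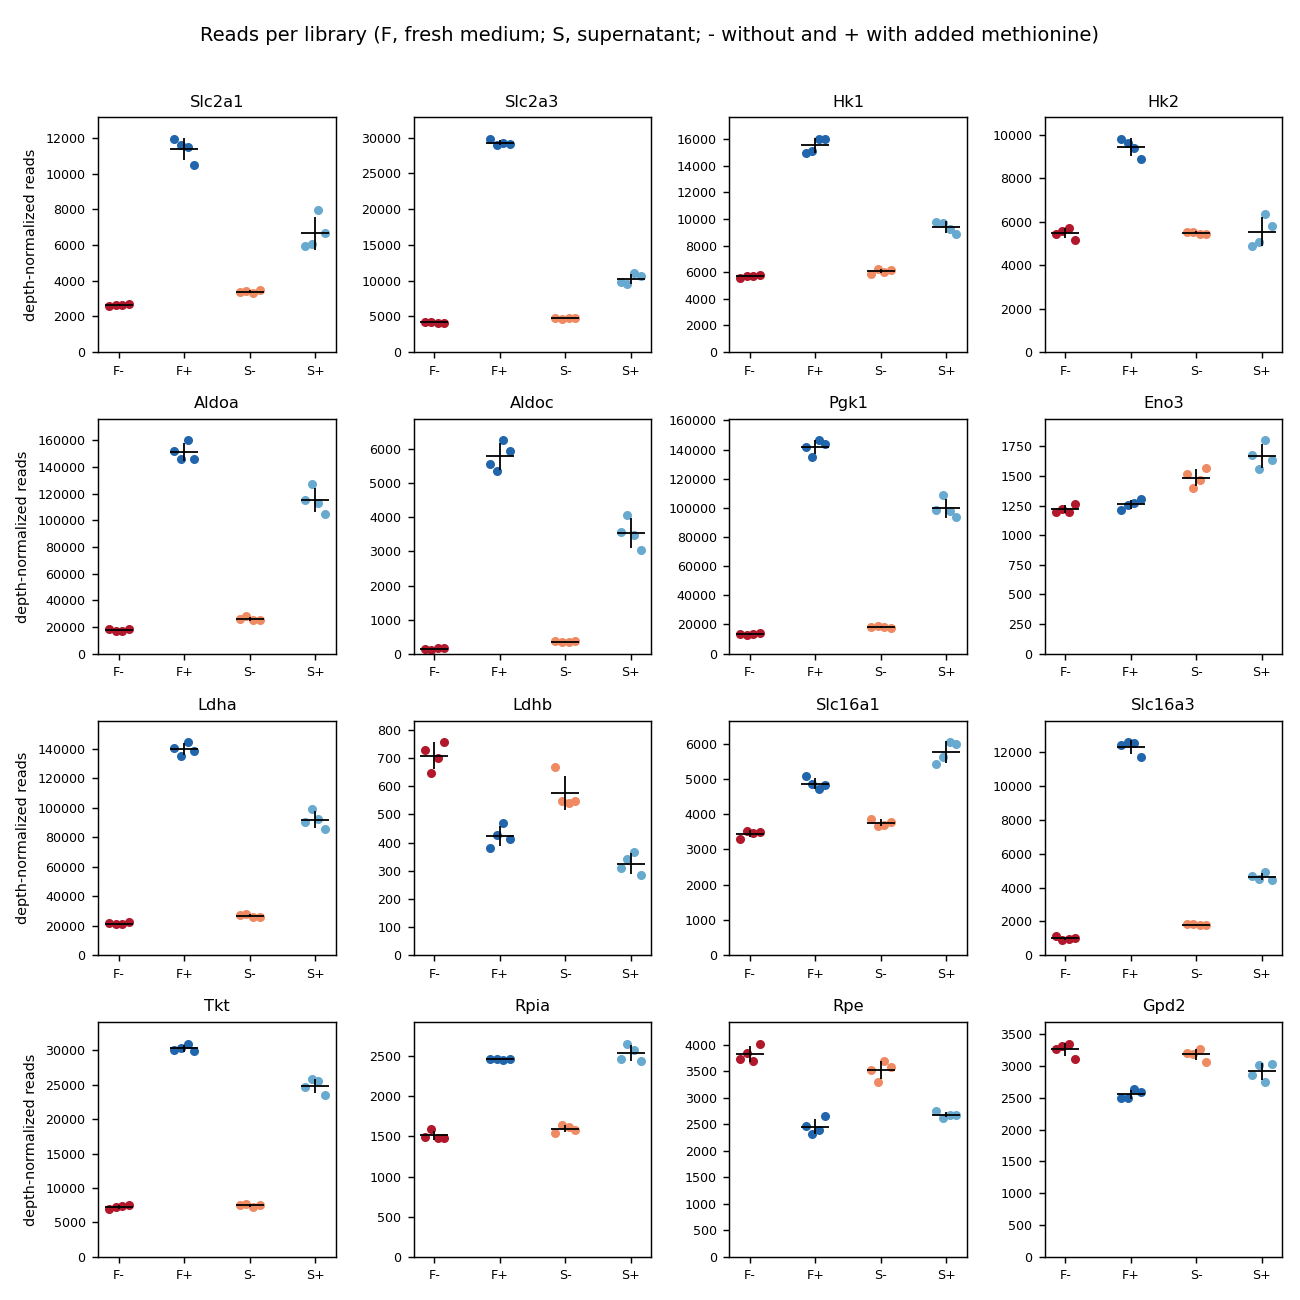
Depth-normalized reads (y axis, starting at 0, scale differing by panel) of 16 members in each library, by medium (F, fresh medium; S, supernatant; - without and + with added methionine). Points are libraries and crosses are means with SD (n = 4). Ldhb, Rpe and Gpd2 are higher without added methionine, Hk2 stays low in both supernatants, and Eno3 is highest in supplemented supernatant.

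The genes that decide what becomes of pyruvate split into opposite directions. Ldha encodes the lactate dehydrogenase subunit that favours making lactate, and held 21574, 20854, 20957 and 22288 reads in methionine-free and 140573, 135083, 144461 and 138634 in complete medium. It held 27065, 27814, 25668 and 26063 in supernatant and 90523, 99039.7, 92311 and 85792 in supplemented supernatant. That is a 6.52-fold fall (log2 fold change -2.71, SE 0.035, adjusted p = 5.49e-35) and a 3.45-fold rise (adjusted p = 9.34e-30). Ldhb, the subunit that favours using lactate, held 728, 646, 702 and 758 reads in methionine-free and 383, 426, 469.6 and 415 in complete medium. It held 668, 548, 542 and 549 in supernatant and 309, 340.5, 368 and 285 with methionine added. Every library without added methionine was above every library with it. Ldhb rose 1.67-fold on removal (log2 fold change 0.74, SE 0.079, adjusted p = 2.43e-10) and fell 1.77-fold on addition (adjusted p = 2.44e-11).

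The transporters that carry lactate differed in size of response. Slc16a3 (MCT4, which exports lactate) held 1109, 907, 960.0 and 1024 reads in methionine-free and 12424, 12613, 12561 and 11732 in complete medium. In supernatant it held 1818, 1840.0, 1771 and 1774, rising only to 4697, 4499, 4930.0 and 4457 when methionine was added. Its fall in fresh medium was 12.4-fold (log2 fold change -3.63, SE 0.044, adjusted p = 8.15e-36), its rise in supernatant 2.58-fold (adjusted p = 4.2e-24). Slc16a1 (MCT1, which carries lactate in either direction) held 3305, 3512, 3479 and 3503 and 5095, 4856, 4707 and 4823 in the fresh media, then 3876, 3673, 3693 and 3791 and 5420.0, 5610.3, 6050.5 and 5991 in the supernatants. It fell 1.41-fold and rose 1.53-fold, and in supplemented supernatant it stood 1.18-fold above complete medium (adjusted p = 3.45e-07). Pdk1, a kinase that shuts pyruvate out of the mitochondrial pyruvate dehydrogenase, held 3478, 3558, 3508 and 3532 and 14337, 13781, 14114 and 15369.9, then 4203, 3884, 3987 and 3959 and 9179.6, 9195, 9209 and 8997. It fell 4.09-fold (adjusted p = 5.46e-33) and rose 2.28-fold (adjusted p = 2.15e-26).

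The 3 genes of the oxidative arm of the pentose phosphate pathway, which makes NADPH, all fell on removal. G6pdx, its first enzyme, held 1594, 1568, 1564 and 1554 reads in methionine-free and 4074, 4091, 4243 and 4125 in complete medium, then 1775, 1780.2, 1674 and 1674 and 3140.1, 2972, 3330.1 and 3072 in the supernatants. It fell 2.63-fold (log2 fold change -1.4, adjusted p = 7.74e-27) and rose 1.81-fold (adjusted p = 8.89e-21). Pgls, the lactonase, held 1508, 1276, 1349 and 1387 and 2269.5, 1993, 2062 and 1899.7, then 1442, 1506, 1361 and 1455 and 2594, 2659, 2845 and 2539. It fell 1.49-fold and rose 1.84-fold, ending 1.29-fold above complete medium (adjusted p = 9.12e-08). Pgd, the second NADPH-making enzyme, held 4018, 4076, 3986 and 4257 and 6973, 7019, 6669 and 6509.9 in the fresh media, then 4574, 4467, 4469.7 and 4555 and 4657, 4887, 4859 and 4597 in the supernatants. It fell 1.66-fold (adjusted p = 1.24e-20) but on addition rose only 1.05-fold (adjusted p = 0.0356), a call lost under total-read scaling (log2 -0.059, adjusted p = 0.0788) and without supplemented library 1 (adjusted p = 0.113).

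Among the enzymes that interconvert pentoses, transketolase and transaldolase followed methionine most. Tkt held 6949, 7198, 7337 and 7530.2 reads in methionine-free and 30067, 30344, 31004 and 29851 in complete medium, then 7484, 7663, 7267 and 7482 in supernatant and 24670.2, 25780.1, 25529 and 23562 once it was supplemented. Taldo1 held 2159, 2014, 2109 and 2359 and 7186, 7111, 7211 and 7070.0, then 2364, 2458, 2458 and 2299.5 and 6760.2, 6877, 6812 and 6472. Tkt fell 4.18-fold and rose 3.33-fold, and Taldo1 fell 3.31-fold and rose 2.81-fold (largest adjusted p of the 4 values 3.9e-27). Rpia, which forms ribose 5-phosphate, held 1492, 1597, 1484 and 1483 and 2459.7, 2462, 2456 and 2467 in the fresh media and 1549, 1643, 1612 and 1584 and 2470.5, 2657, 2579 and 2446 in the supernatants. Its complete and supplemented libraries overlapped (log2 difference 0.04, 95% interval -0.03 to 0.12, adjusted p = 0.31). Rpe, which forms xylulose 5-phosphate from the same precursor, went the other way, at 3728, 3841, 3693 and 4021 and 2469.7, 2316, 2385 and 2657, then 3527, 3295, 3685 and 3584 and 2749, 2625, 2665 and 2680.5. It rose 1.56-fold on removal (adjusted p = 2.76e-16) and fell 1.31-fold on addition (adjusted p = 7.17e-11).

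The 4 branch enzymes were divided. Gpd2, the mitochondrial glycerol 3-phosphate dehydrogenase that passes electrons from cytosolic NADH to the respiratory chain, held 3266, 3316, 3352 and 3107 and 2503, 2491, 2635 and 2590.4 reads in the fresh media, then 3208, 3186, 3270.1 and 3064 and 2864, 3022, 2741 and 3029 in the supernatants. Bpgm, which makes 2,3-bisphosphoglycerate, held 705, 733, 721 and 714 and 535, 521, 518 and 539, then 722, 739, 722 and 718 and 481, 459.8, 512 and 459. Both were higher without added methionine in either medium. On removal Gpd2 rose 1.28-fold (adjusted p = 1.16e-10) and Bpgm 1.36-fold (adjusted p = 2.75e-09), and on addition they fell 1.09-fold (adjusted p = 0.00181) and 1.52-fold (adjusted p = 2.42e-12).

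The phosphoglucomutases, which link glycolysis with glycogen, are given under the symbols of the table. These 2 symbols have been exchanged between annotation versions, and the files do not settle which version was used. The row Pgm2 held 1014, 1065, 1074 and 1072 and 9386, 9052, 9558 and 9772 reads in the fresh media, then 1171, 1125, 1109 and 1310.4 and 6346, 6669, 6259 and 5832 in the supernatants. It fell 8.93-fold (adjusted p = 2.3e-34) and rose 5.33-fold (adjusted p = 7.91e-31), near the size of the changes of Tpi1 and Pgk1. The row Pgm1 held 1026 ± 26.7 and 1521 ± 78.6 reads in the fresh media (SD, n = 4), a 1.48-fold fall (adjusted p = 8.74e-14), and its difference on addition missed the threshold (log2 0.09, adjusted p = 0.0528).

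In the size of the change with methionine, fresh medium and supernatant differed for most members. The amounts of methionine in the media were not compared, so the step in methionine may differ between fresh medium and supernatant. The effect was smaller in supernatant than in fresh medium, with an interaction below 0, for 27 of the 36 genes, and above 0 for 4, where 25% and 27.6% of all tested genes were called below and above 0 (52.6% in all). At least 2-fold, it was below 0 for 7 genes and above 0 for none, against 2.83% and 1.99% of all tested genes. From FPKM values 22 were called below 0 and 0 above, against 3.37% and 3.05% of all genes tested there. The median interaction of the 36 genes was -0.76 on the log2 scale, against 0.01 over all genes tested. Slc16a3 had the lowest value (-2.26, SE 0.062, adjusted p = 3.15e-24), followed by Aldoc (-2.01, SE 0.12, adjusted p = 3.11e-15) and Slc2a3 (-1.71, SE 0.048, adjusted p = 3.35e-24). Pgls (0.31) and Slc16a1 (0.12) had a larger rise in supernatant, though the call of Slc16a1 was lost in 15 alternative analyses of the depth-normalized values, with an adjusted p of up to 0.11. For Rpe (0.24) and Gpd2 (0.22), which rose on removal, the interaction above 0 meant a smaller methionine effect in supernatant. The interaction missed the threshold for Eno1, Eno3, Ldhb, Rpia and Bpgm, at -0.59, 0.12, -0.08, -0.03 and -0.16.

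**Figure D4:**
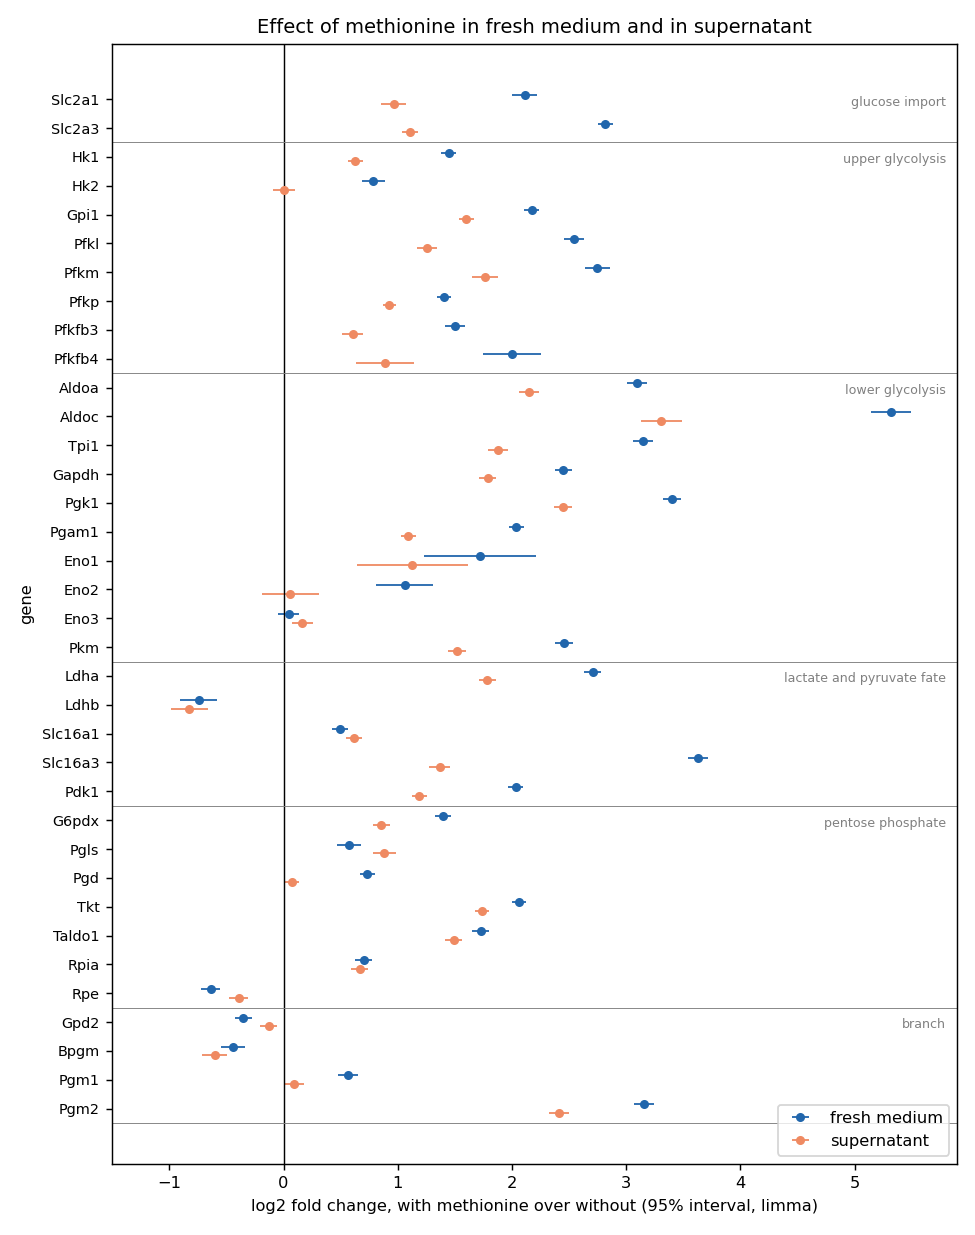
Log2 fold change with methionine over without added methionine (x axis) for the 36 genes (y axis). Fresh medium is blue and supernatant orange, with 95% intervals from limma. For most genes the orange point lies nearer 0 than the blue one; Ldhb, Rpe, Gpd2 and Bpgm lie left of 0 in both media.

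What remained between supplemented supernatant and complete medium was smaller in the median than the effect of methionine, but in 1 main direction. For some genes it exceeded the change on addition to supernatant. Examples are Slc2a3 (log2 -1.52 against 1.11), Hk1 (-0.73 against 0.63) and Hk2 (-0.78 against 0.00). Of the 36 genes, 30 were lower, 5 higher and 1 not called (32.5% lower, 32.5% higher and 65% in all over all tested genes), with a median log2 fold change of -0.55. A difference of at least 2-fold was found for 2 genes, Slc2a3 (2.87-fold lower) and Slc16a3 (2.66-fold lower, adjusted p = 1.61e-23), the glucose importer and the lactate exporter, against 2.33% of all tested genes. The higher genes were Eno3, Slc16a1, Pgls, Rpe and Gpd2. Taldo1 came closest to complete medium among the genes called lower (1.06-fold, adjusted p = 0.0398), and that call was lost under total-read scaling (adjusted p = 0.0808) and without supplemented library 3 (adjusted p = 0.130). Eno1 (1.64-fold lower, adjusted p = 0.00997) lost its call without complete-medium library 1 (adjusted p = 0.0716). From FPKM values 20 genes were called lower and 1 higher, against 8.69% and 8.07% of all genes tested there.

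Between the media that lacked added methionine the differences were small. In supernatant 25 of the 36 genes were higher than in methionine-free fresh medium and 2 were lower, where 14% and 12.9% of all tested genes were called (26.8% in all), and the median log2 fold change was 0.18. The sole member past 2-fold was Aldoc, at 2.45-fold higher (adjusted p = 3.21e-13), against 0.249% of all tested genes higher and 0.136% lower by as much. It was followed by Slc16a3 (1.81-fold, adjusted p = 4.28e-16) and Tpi1 (1.55-fold, adjusted p = 5.55e-13). The lower genes were Ldhb (1.23-fold, adjusted p = 0.00447), whose libraries overlapped, and Rpe (1.08-fold, adjusted p = 0.0253), which lost its call without methionine-free library 3 (adjusted p = 0.112) or supernatant library 1 (adjusted p = 0.122). From FPKM values 1 member was called higher and 0 lower, against 0.197% and 0.077% of all genes tested there. With a block for replicate number, all-gene calls from FPKM went from 23 higher and 9 lower to 627 and 814. The member counts with that block are given in the closing section on processing.

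To set genes side by side, FPKM (fragments scaled for transcript length and library size) was used. In complete medium Aldoa stood highest at 3435 ± 607 FPKM, followed by Gapdh at 3037 ± 549.6, Ldha at 2816 ± 338, Pgk1 at 2422 ± 106, Pkm at 2228 ± 319 and Tpi1 at 1105 ± 75.4 (SD, n = 4). Neighbours among the first 5 differed by less than 2 SD of the more variable gene. The lowest were Eno2 at 1.59 ± 0.225 and Pfkfb4 at 3.5 ± 0.354. In methionine-free medium the same 5 led at a far lower level, with Gapdh at 486 ± 71, Ldha at 385 ± 54.8, Pkm at 373 ± 87.4, Aldoa at 369.7 ± 63.7 and Pgk1 at 229 ± 16.1.

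Where several genes encode the same step, the balance between them moved with methionine. The log2 ratio within a library was compared for 11 pairs by an exact two-sided permutation test in each of 2 comparisons. In these 22 tests the smallest possible p was 0.0286, or 0.0349 after adjustment. That smallest value was reached by 10 of 11 pairs on removal and 8 of 11 on addition. Ratios of other gene pairs were not compared, and 85.6% and 83.7% of all tested genes were called in these comparisons. The counts therefore cannot be called particular to these pairs, among which Pfkp and Eno1 recur. The Ldha to Ldhb ratio shifted most. In FPKM, Ldha made up 99.6% ± 0.0246 of the pair in complete medium and 95.4% ± 0.159 in methionine-free medium (SD, n = 4), a difference of -3.45 in the log2 ratio of reads (exact permutation adjusted p = 0.0349). In supernatant it made up 97% ± 0.403 and, with methionine, 99.5% ± 0.0205.

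The lactate transporters exchanged the lead. Slc16a3 made up 84% ± 3.77 of its pair with Slc16a1 in complete medium and 34.8% ± 9.44 in methionine-free medium, then 49.7% ± 14.9 in supernatant and 63.1% ± 9.0 in supplemented supernatant (SD, n = 4). The log2 ratio of reads differed by -3.13 on removal and 0.75 on addition (both exact permutation adjusted p = 0.0349), though with FPKM ratios the exact permutation test of the addition gave an adjusted p of 0.198. Pgm1 made up 51.1% ± 2.77 of the phosphoglucomutase pair in methionine-free and 14.9% ± 1.95 in complete medium.

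Among the hexokinases Hk2 took 41.6% ± 1.55 of the pair with Hk1 in methionine-free medium against 29.9% ± 2.57 in complete medium, and 39.5% ± 2.39 in supernatant against 29.1% ± 2.27 with methionine (SD, n = 4). Its lower share with methionine was called in both media. Aldoc took 0.653% ± 0.117 and 2.85% ± 0.0895 of the aldolase pair in the fresh media. Pfkl took 13% ± 2.78 against 26.5% ± 3.0 of its pair with Pfkp, and Pfkm 4.08% ± 0.827 against 10.2% ± 1.6. Slc2a1 took 51% ± 2.27 of the importer pair in methionine-free and 41.4% ± 2.69 in complete medium, while in supernatant the shares of 55.4% ± 4.34 and, with methionine, 54.6% ± 3.39 did not pass the test (exact permutation adjusted p = 0.0943 for the ratio of reads). Pfkfb4 to Pfkfb3 passed on removal only (adjusted p = 0.200 on addition, exact permutation test), Eno3 to Eno1 likewise (adjusted p = 0.0943), and Eno2 to Eno1 only on addition (adjusted p = 0.180 on removal). Both enolase calls were lost without any 1 of the 4 methionine-free or supplemented libraries (adjusted p up to 0.0698, exact permutation test).

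**Figure D5:**
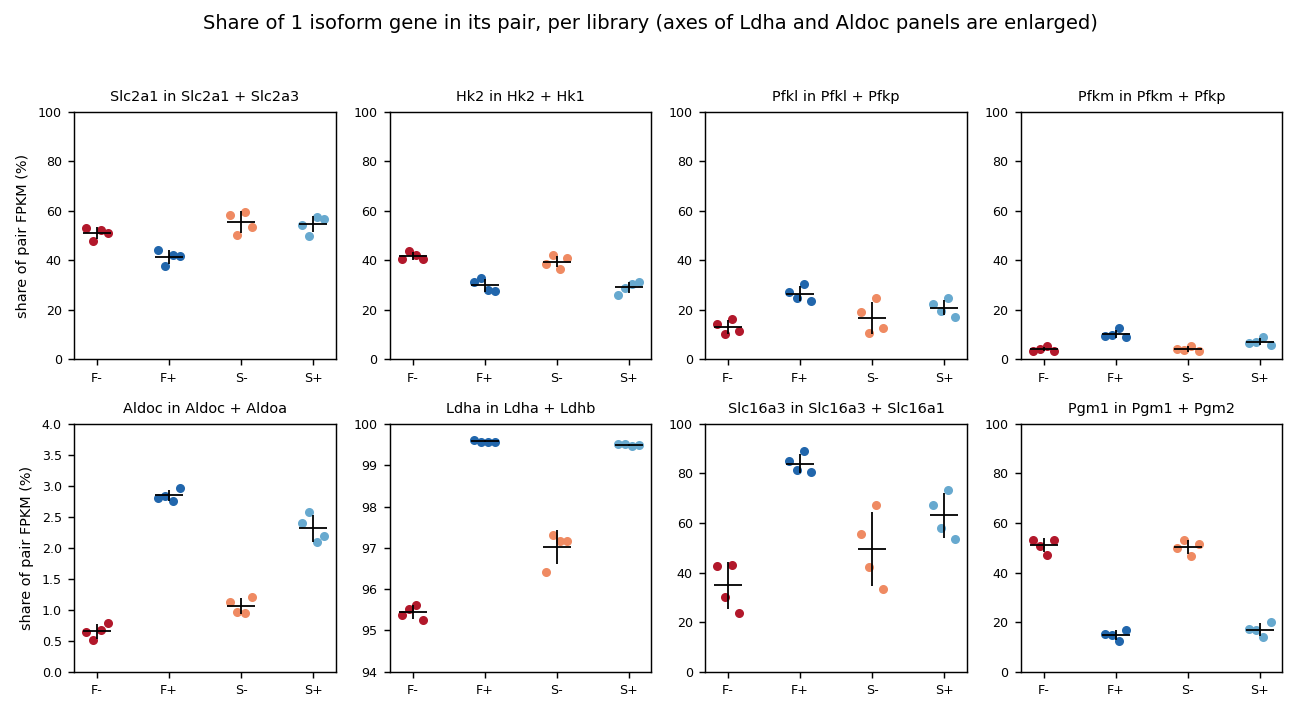
Share of 1 gene in the summed FPKM of its pair (y axis, percent) in each library, by medium (F, fresh medium; S, supernatant; - without and + with added methionine), for 8 pairs. Points are libraries and crosses are means with SD (n = 4); the axes of the Aldoc and Ldha panels are enlarged and do not span 0 to 100, and the share of Pgm1 falls from 51.1% without methionine to 14.9% with it in fresh medium.

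Of 64 further genes of sugar metabolism and its control, 44 were tested. Methionine removal in fresh medium lowered 25 and raised 13 of these, where 42.3% and 43.3% of all tested genes were lower and higher, with a median log2 fold change of -0.20. Addition to supernatant raised 25 and lowered 10, where 41.8% of all tested genes went each way. Among those that averaged 100 reads or more, Pygl, a glycogen phosphorylase, fell by 3.95 and Gbe1, the glycogen branching enzyme, fell by 2.31 on the log2 scale on removal. Arrdc4 rose by 2.98 and Myc, a transcription factor that drives glycolytic genes in activated T cells, by 1.41. Arrdc4 and Txnip are arrestin-like proteins that hold back glucose uptake. Txnip stood at 33392 ± 610.4 reads in methionine-free and 12589 ± 617 in complete medium, and at 34589 ± 603 in supernatant and 12920.3 ± 534 with methionine (SD, n = 4), so that its changes of 1.41 on removal and -1.42 on addition did not differ between media beyond their error (interaction -0.01, 2-sided adjusted p = 0.83).

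Of the transcription factors of glycolytic genes in that list, Myc and Hif1a were higher without added methionine. Mlxip, named here after its values were seen, was lower. Myc stood at 16102 ± 684 reads in methionine-free and 6054 ± 316 in complete medium (SD, n = 4; adjusted p = 2.34e-26), and at 17289 ± 547 in supernatant and 11629 ± 689.8 in supplemented supernatant (adjusted p = 2.11e-15). Hif1a stood at 22741 ± 609.6 and 18870.5 ± 902, then 24975 ± 1219 and 19492 ± 455. Its rise on removal was 0.27 and its fall on addition -0.36 on the log2 scale (adjusted p = 6.68e-09 and 1.43e-11). Mlxip (MondoA, a factor that responds to glucose 6-phosphate) stood at 3755 ± 88.9 and 5536 ± 251 in the fresh media, then 3897 ± 82.1 and 4653 ± 222 (SD, n = 4), a fall on removal (log2 -0.56, adjusted p = 4.48e-16) and a rise on addition (log2 0.25, adjusted p = 6.96e-08). Mlx, its partner, likewise named after its values were seen, differed by -0.10 on removal (adjusted p = 0.0163) and 0.04 on addition (adjusted p = 0.266).

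The other pyruvate dehydrogenase kinases went partly with Pdk1. Pdk3 fell from 3345 ± 199 to 1303 ± 39.2 reads on removal and rose from 1298 ± 44.5 to 2689.9 ± 122 on addition (SD, n = 4; adjusted p = 1.53e-24 and 2.93e-21). Pdk2 fell on removal (log2 -0.49, adjusted p = 0.000547) but its difference on addition missed the threshold (-0.12, adjusted p = 0.376). Hk3, a hexokinase of blood cells, went against Hk1 and Hk2 on removal, with 103 ± 5.82 reads in methionine-free and 64.3 ± 10.4 in complete medium (adjusted p = 0.000149). H6pd, the counterpart of G6pdx in the endoplasmic reticulum, changed by -0.15 on removal (adjusted p = 0.00118) and 0.07 on addition (adjusted p = 0.131). Pck2, which makes phosphoenolpyruvate in mitochondria, stood at 1769 ± 89.2 and 3636 ± 159 in the fresh media, then 2171 ± 64.8 in supernatant and 9959.9 ± 407 in supplemented supernatant, 1.45 log2 units above complete medium (adjusted p = 2.34e-25).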

How the data were processed

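RNA was sequenced from 16 libraries of CD8+ T cells, 4 per medium, numbered 0 to 3 as in the labels and listed in that order. The submitters' processing notes name builds mm10 and GRCm38 and, with no order, Cuffdiff 2.2.1 and Cufflinks, Bowtie2 2.2.1, TopHat2 2.0.13 and FastQC 0.11.3. The counting tool, annotation and strand are not given in the sources used here, so overlapping and antisense transcripts cannot be separated. The authors deposited a depth-normalized signal per gene and library, which from its values is whole reads divided by 1 factor per library in 15 libraries; in methionine-free library 1 the factor lies too near 1 to be checked that way. The authors also deposited FPKM per gene and library.

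Genes averaging 10 or more were fitted as log2(value + 1), with 4 group means and a trended variance, in limma 3.58.1 under R 4.3.3. Tests were two-sided over the 12469 genes, with Benjamini-Hochberg adjustment and a threshold of 0.05. Fold changes are on that scale and understate low genes. The interaction is methionine's effect in supernatant minus that in fresh medium. The fit was tested on simulated data. Isoform pairs were compared by exact permutation of within-library log2 ratios over the libraries. Alternatives were total-read and quantile scaling, other pseudocounts and filters, FPKM (mean of at least 0.5, pseudocount 0.1), a replicate block, each library left out, only the groups compared, and edgeR 4.0.16 and DESeq2 1.42.0 on 15 libraries. The limit to 15 was set after seeing the data, as were GCGTG, the order of the 4 media and the counts without Eno1.

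Members, lists and tests were chosen with earlier results of these data known. Every member is named with a value; the values of all libraries are given for genes listed by name and for the extremes of each role. Further genes named are 10 listed by name, where tested, and the 2 highest and 2 lowest on removal. Pdk4 and Tigar of these 10 were not analysed here. Promoters came from RefSeq by symbol, without Slc2a3, Pgm1 and Pgm2.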

Additional observations from a re-analysis of the deposited data

Results flagged for a closer look

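In 7 of 144 groups of 4 libraries (36 genes in 4 media) 1 library stood apart from the other 3 by Dixon's test of the gap to the nearest. About 5% of groups would be picked by chance. These were Eno1 in methionine-free library 1 (173 reads), Eno2 in supplemented library 0 (80.8), Ldhb in supernatant library 0 (668), Slc16a1 in methionine-free library 0 (3305), Pdk1 in supplemented library 3 (8997), Rpia in methionine-free library 1 (1597) and Pgm2 in methionine-free library 0 (1014).

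The effect of methionine differed between supernatant and fresh medium, by the interaction of the limma fit, for 31 genes (log2 values). For glucose import it was -1.14 in Slc2a1 and -1.71 in Slc2a3. For upper glycolysis it was -0.82 in Hk1, -0.78 in Hk2, -0.57 in Gpi1, -1.29 in Pfkl, -0.98 in Pfkm, -0.48 in Pfkp, -0.90 in Pfkfb3 and -1.11 in Pfkfb4. For lower glycolysis it was -0.95 in Aldoa, -2.01 in Aldoc, -1.27 in Tpi1, -0.66 in Gapdh, -0.95 in Pgk1, -0.95 in Pgam1, -1.0 in Eno2 and -0.94 in Pkm. The lactate and pyruvate genes gave -0.92 in Ldha, 0.12 in Slc16a1, -2.26 in Slc16a3 and -0.84 in Pdk1. The pentose phosphate genes gave -0.54 in G6pdx, 0.31 in Pgls, -0.66 in Pgd, -0.33 in Tkt, -0.24 in Taldo1 and 0.24 in Rpe. The branch enzymes gave 0.22 in Gpd2, -0.48 in Pgm1 and -0.75 in Pgm2.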

How the results depend on the processing

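Of the 216 results of single genes (36 genes in 6 comparisons), all 216 kept their call with a pseudocount of 5, 215 with the replicate block on depth-normalized values, where the interaction of Slc16a1 ended (adjusted p = 0.0516), 212 by edgeR and 213 by DESeq2 on 15 libraries. FPKM kept 150, and FPKM with the replicate block 188. From FPKM the members called higher in supernatant than in complete medium went from 5 to 1, those called lower on addition from 4 to 2, those higher in supplemented supernatant than in complete medium from 5 to 1 (3 with the block), and those with an interaction above 0 from 4 to 0 (1 with the block). Supernatant against methionine-free medium went from 25 higher to 1 (13 with the block) and from 2 lower to 0 (0 with the block, 1 by DESeq2, 1 to 2 with a library left out). Total-read scaling took the median of all genes from 0.01 to 0.17 on removal and from -0.0041 to -0.14 on addition. There Eno3 on removal turned to 0.11, and on addition Hk2 to -0.13, Eno2 to -0.070, Pgd to -0.059 and Pgm1 to -0.040. All-gene calls then split into 4370 lower and 6367 higher on removal, and 6164 lower and 4355 higher on addition. Hk2 on addition also turned to -0.060 by quantile scaling, -0.0021 without supernatant library 2, and -0.064 and -0.022 without supplemented library 2 or 3 (range with 1 library left out -0.064 to 0.061). Between the media without added methionine, Hk2 turned to -0.0082 by total reads and by FPKM with or without the block. It turned to -0.023 without methionine-free library 3 (range -0.023 to 0.025). Eno1 turned to 0.063 without supernatant library 3 (range -0.39 to 0.063). From FPKM Rpia turned to -0.013 and Bpgm to -0.029, as Rpia did to -0.020 in supplemented supernatant against complete medium. The cause was not tested. Residuals of same-numbered libraries correlated at -0.067 to 0.068 in depth-normalized values, where 5 of 16 libraries correlated most with their own number, and at 0.093 to 0.48 in FPKM, where 13 did. With 1 library left out, 9 to 11 isoform pairs passed on removal and 7 to 9 on addition. Only pairs of Eno1 and, without supplemented library 2, Slc2a1 to Slc2a3 (adjusted p = 0.0349) changed their call. FPKM ratios called the same 10 pairs on removal. On addition they called 7, of which 6 were among the 8 called from reads, losing Pfkl to Pfkp (adjusted p = 0.299) and Slc16a3 to Slc16a1 and gaining Eno3 to Eno1 (all exact permutation tests). Over the 4 same-numbered pairs of libraries an exact sign-flip test of the isoform pairs cannot reach the threshold, so only directions are given. On addition 10 of 11 pairs in reads and 8 of 11 in FPKM moved 1 way in all 4 numbered pairs, Slc16a3 to Slc16a1 in both.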
